A study of Drosophila melanogaster with 24 samples.

Results

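Females carrying an RNA interference transgene against Hr96 were compared with females carrying the GAL4 driver alone. Hr96 encodes DHR96, a nuclear receptor of Drosophila melanogaster. The comparison rests on 6 of the 24 arrays of the study, chosen by their titles: 3 of females labelled knockdown (line 3) and 3 of control females. The flies labelled knockdown had the genotype w;arm-GAL4/+;UAS:RNAi_Dhr96Hp_3/+, and their controls w;arm-GAL4/+. Both groups thus shared the w background and 1 copy of the driver, in which the promoter of armadillo, a broadly expressed gene, makes the yeast activator GAL4. GAL4 in turn switches on the UAS transgene. Only 1 line is given for this transgene, and the control carried no UAS insertion. Groups used beside these were males of the same genotypes, and over-expression flies (line 35, w;Act5C-GAL4/UAS:OE_Dhr96OE_35) with their control (w;Act5C-GAL4/+). All were whole adults of 0 to 3 days, they were fed one diet made in 3 batches, and arrays that share a replicate number share a batch and were paired. How many flies were pooled per array is not given in the sources used here.

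DHR96 is known for switching on genes that break down foreign compounds and for keeping triglyceride and sterol levels in balance, in part through the gut lipase magro and sterol carriers of the Niemann-Pick type. A hairpin RNA made from a UAS transgene is cut by the RNA interference machinery and directs the decay of the matching transcript. Whole females hold a large mass of ovary, so genes of the germline and of the follicle cells that build the eggshell are prominent in their RNA.

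Values are log2 of the intensity the authors deposited, on which a difference of 1 is 2-fold. Median intensities of the 6 arrays lay between 53.5 and 56.8, and arrays of 1 group correlated at 0.976 to 0.992. The median SD of a probe set was 0.14 in females labelled knockdown and 0.18 in control females. Female tissue was evident in both groups: the 4 yolk genes averaged 12.59 in females labelled knockdown and 12.32 in control females, against 5.35 and 5.16 in males of these genotypes. Testis genes averaged 4.67 and 4.63 in the 2 female groups and 9.90 in both male groups. Precision is limited by having 3 arrays in each group.

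The gene that the transgene targets was not lower in females labelled knockdown. Hr96 read 7.91, 8.15 and 7.88 in females labelled knockdown, against 7.85, 7.99 and 7.58 in arm-GAL4 control females. The ranges overlapped, and the labelled array was the higher one of the pair in each diet batch. The mean difference was 0.17 (SE 0.32, limma adjusted p = 0.966), with a 95% interval of -0.50 to 0.84, which in fold terms runs from 0.705 to 1.79. That SE pools the spread of all groups of the study. The SD of Hr96 was 0.43 in over-expression females and 0.999 in over-expression males. It was 0.15 in females labelled knockdown and 0.21 in their controls, so the interval is wider than the compared arrays alone would give. In males of these genotypes the difference was -0.14 (SE 0.32, limma adjusted p = 1.00). The same probe set was higher by 1.40 in over-expression females (SE 0.32, limma adjusted p = 0.0262). Where its probes lie relative to the hairpin is not given in the sources used here. Every direction below therefore refers to the label, not to a measured loss of Hr96.

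Few probe sets separated females labelled knockdown from their controls. At a limma adjusted p under 0.05, 7 of 18769 probe sets were called, or 0.0373%: 5 were higher (0.0266%) and 2 lower (0.0107%). An unadjusted p under 0.05 was reached by 961 (5.12%). All 7 called had the same sign in all 3 diet batches, as did 33.8% of probe sets tested, and in none of the 7 did the groups overlap, as in 9.05%. Only 3 of the 7 name a gene: CG1304, the chitinase gene Cht10 and CG13155. The other 4 are unnamed here and are given by their probe set. Without diet batch in the fit 4 were called, all higher. The count was 12 without labelled females replicate 3 and 11 without control females replicate 1.

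The largest rise was that of the unnamed probe set 1640377_s_at. It read 9.01, 8.23 and 8.86 in females labelled knockdown, against 5.48, 4.80 and 5.23 in control females. Its lowest labelled array was thus far above its highest control array. The change was 3.53 (SE 0.20, limma adjusted p = 3.3e-09), or 11.6-fold.

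CG1304, a gene on the X chromosome grouped here with trypsin-like proteases, had the next largest rise. It read 6.93, 6.33 and 7.78 in females labelled knockdown, against 3.80, 3.78 and 3.93 in control females. The control values were nearly equal and were under the lower quartile on each of the 6 arrays (at least 4.38), so the size of the rise is uncertain. The labelled arrays spread over more than 1 unit. The change was 3.18 (SE 0.25, limma adjusted p = 6.5e-07).

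The gene next to CG1304 among those measured is Ser6, which also encodes a serine protease. Ser6 read 8.26, 7.46 and 8.54 in females labelled knockdown, against 7.18, 6.86 and 7.09 in control females. The groups did not overlap, as in 9.05% of probe sets tested. The change of 1.04 (SE 0.25) missed the threshold (limma adjusted p = 0.243), and passed it without labelled females replicate 2 (1.38, adjusted p = 0.0431). On the other side of CG1304, CG11666 had a change of 0.19 (limma adjusted p = 0.901).

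Cht10 encodes a chitinase, an enzyme that cuts the chitin of the cuticle and gut lining. It read 5.68, 5.33 and 5.28 in females labelled knockdown, against 3.94, 4.43 and 4.12 in control females, whose mean was likewise under the lower quartile of each array. The change was 1.27 (SE 0.13, limma adjusted p = 2.3e-05). Its nearest measured neighbours on chromosome arm 2L, cta and Spf45, had changes of 0.31 (limma adjusted p = 0.909) and 0.26 (adjusted p = 0.901). On the 6 compared arrays alone the call of Cht10 was lost (adjusted p = 0.161), as was that of 1624393_at (0.0959).

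1624393_at, unnamed here, read 7.11, 6.93 and 7.10 in females labelled knockdown, against 5.80, 6.08 and 5.64 in control females. Both groups were tight and well apart (change 1.21, SE 0.16, limma adjusted p = 0.00167). CG13155, on arm 2R, read 7.08, 6.90 and 6.67 in females labelled knockdown, against 5.78, 5.90 and 5.53 in control females. The change was 1.14 (SE 0.19, limma adjusted p = 0.0190). That call was lost when replicate 1 or 2 of the labelled females, or 1 or 3 of the controls, was left out (adjusted p = 0.0968 to 0.161), without diet batch in the fit (0.0532), after quantile normalization (0.114) and on the 6 arrays alone (0.0639). The cuticle protein gene Cpr49Ab and CG8501, which flank CG13155 among measured genes, had changes of -0.31 and -0.21, neither past the threshold (limma adjusted p = 0.912 for each).

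The 2 probe sets called lower are unnamed here and were bright in control females. 1629760_s_at read 8.82, 8.46 and 8.97 in females labelled knockdown, against 9.96, 10.42 and 10.32 in control females (change -1.48, SE 0.24, limma adjusted p = 0.0190). 1626392_s_at read 8.52, 8.79 and 9.39 in females labelled knockdown, against 9.57, 10.30 and 10.49 in control females (change -1.22, SE 0.21, limma adjusted p = 0.0245). In both, every labelled array lay below every control array. Both calls depended on single arrays. That of 1629760_s_at was lost when replicate 2 of the labelled females, or 2 or 3 of the controls, was left out (adjusted p = 0.0849 to 0.187). That of 1626392_s_at was lost when replicate 1 or 2 of the labelled females, or 2 or 3 of the controls, was left out (0.0895 to 0.270). Without diet batch in the fit neither passed (0.0607 and 0.330), nor on the 12 female arrays (0.312 and 0.636) or the 6 compared arrays alone (0.0910 and 0.0747).

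**Figure D1:**
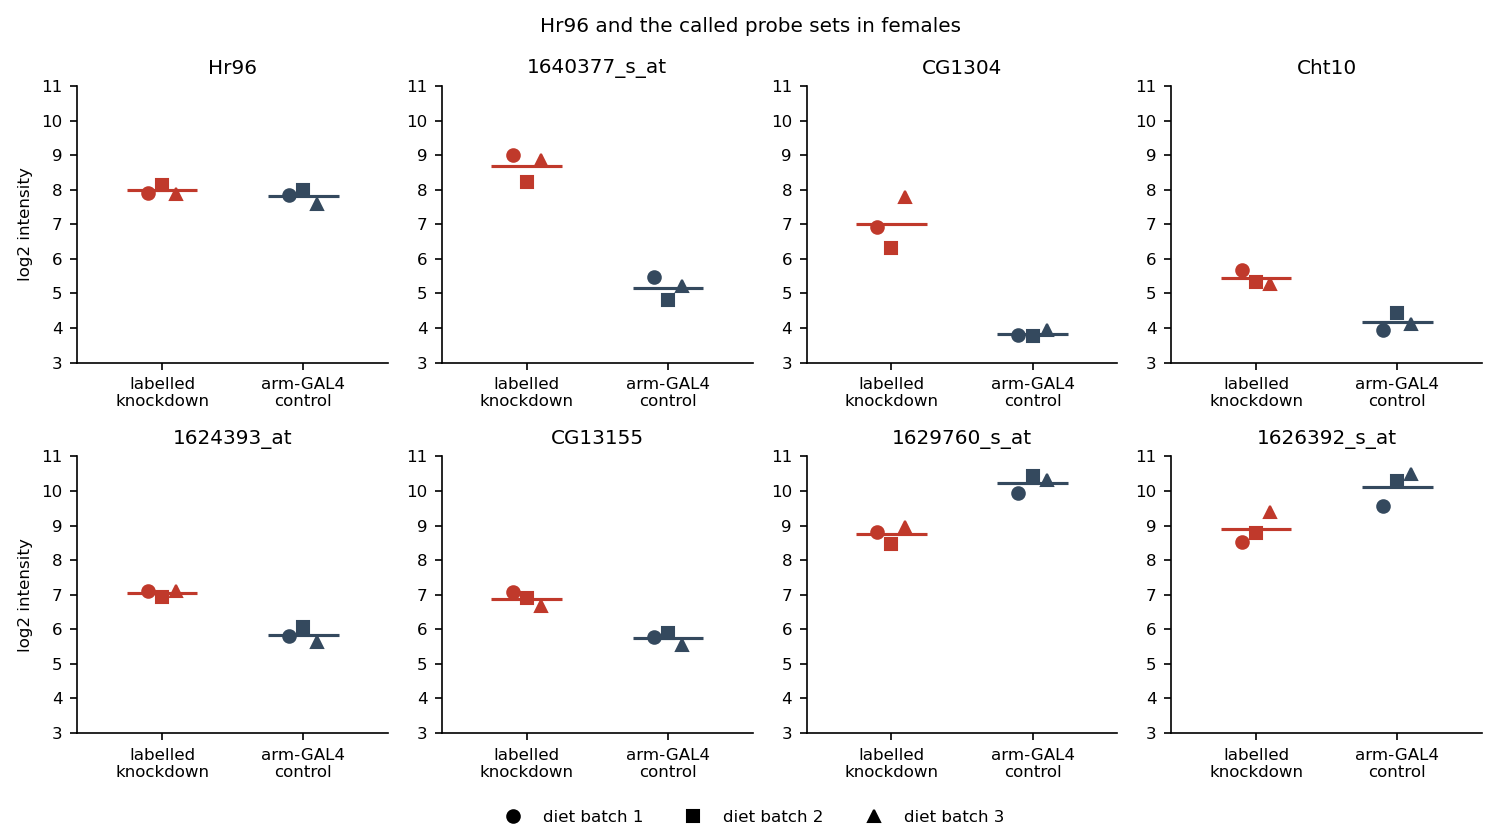
Each panel plots the log2 intensity (vertical axis) of 1 gene or probe set on the 3 arrays of females labelled knockdown (left, red) and the 3 of arm-GAL4 control females (right, dark blue). Marker shapes give the diet batch and lines the group mean. Hr96 overlaps between the groups, and the 7 called probe sets do not.

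The levels of the called probe sets across the other groups of the study showed different patterns. 1640377_s_at averaged 8.70 in females labelled knockdown, 5.17 in arm-GAL4 control females, 4.82 in males labelled knockdown and 4.91 in arm-GAL4 control males. It averaged 9.13 in over-expression females and 8.76 in Act5C-GAL4 control females, close to the females labelled knockdown. CG1304 had a similar order, with 7.01 in females labelled knockdown, 3.83 in arm-GAL4 control females, 3.77 in males labelled knockdown and 4.04 in arm-GAL4 control males. In over-expression and Act5C-GAL4 control females CG1304 averaged 8.44 and 8.07. Ser6 averaged 8.09 and 7.04 in the female groups and 6.10 and 5.92 in males of these genotypes, against 9.10 in over-expression females and 8.34 in Act5C-GAL4 control females. 1624393_at averaged 7.05 in females labelled knockdown and 5.84 in arm-GAL4 control females, beside 7.23 in over-expression females and 6.85 in Act5C-GAL4 control females. 1626392_s_at averaged 8.90 and 10.12 in the first pair, and 9.37 and 8.98 in the second. In these 5 the mean of females labelled knockdown was nearer to those of over-expression and Act5C-GAL4 control females than to that of their own control. So were those of Cht10 and of 1629760_s_at, which averaged 8.75 and 10.23 in the first pair and 9.46 and 10.10 in the second. The distances were nearly equal for Ser6 with over-expression and for 1629760_s_at with Act5C-GAL4. Apart from Ser6, these probe sets were called for lying far from their own control. That makes being nearer to other groups likely, so the nearness is no separate support. How many of all probe sets do the same was not counted. Cht10 was highest of the 8 groups in females labelled knockdown, at 5.43, and next in over-expression females, at 4.93, with 4.73 in Act5C-GAL4 control females. CG13155 was high in both transgene lines: 6.88 in females and 6.95 in males labelled knockdown, and 7.66 and 6.91 with over-expression, against 5.28 to 5.74 in the 4 control groups.

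**Figure D2:**
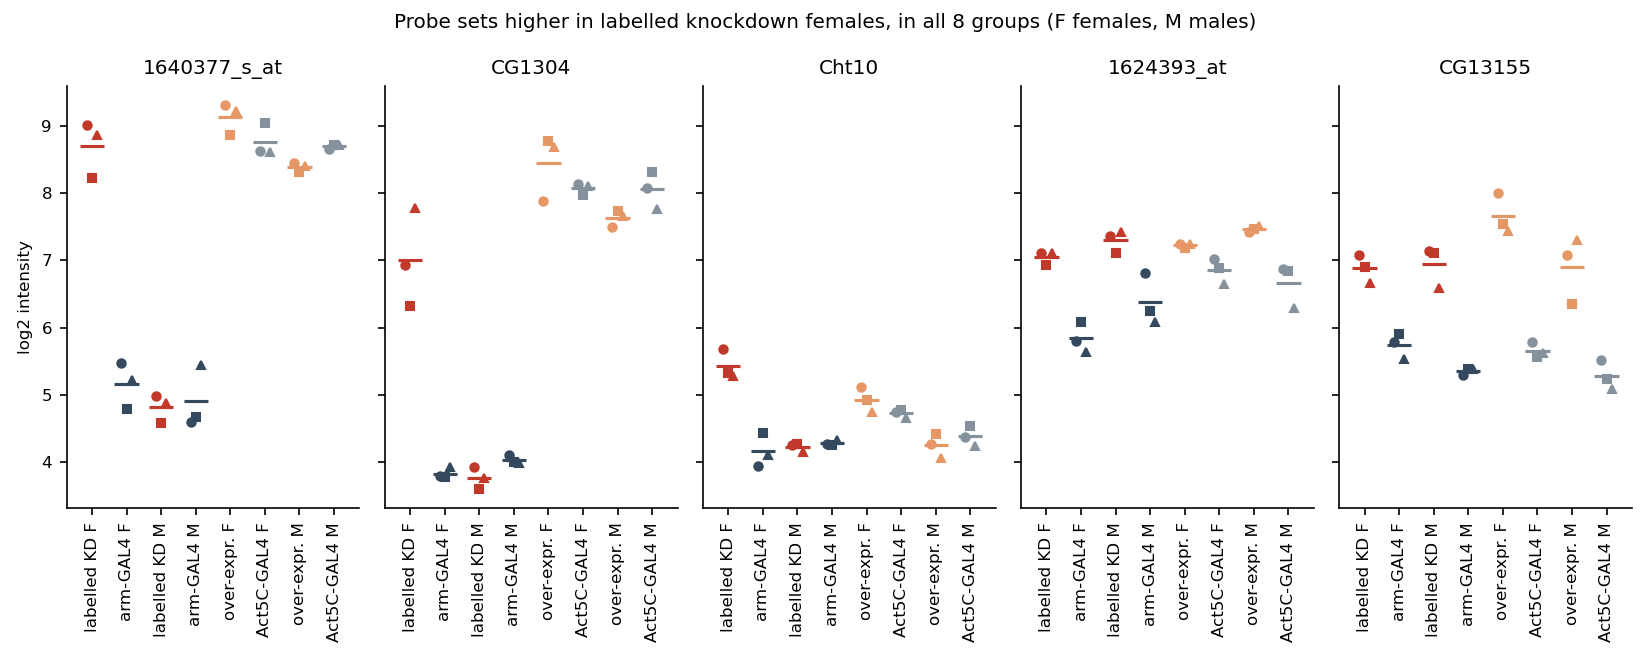
Log2 intensity (vertical axis) of the 5 probe sets called higher in females labelled knockdown is plotted for all 8 groups of 3 arrays, with lines at the group mean and marker shapes for diet batch. 1640377_s_at and CG1304 are high in females labelled knockdown and in all 4 groups with the Act5C-GAL4 driver, and low in the other 3 groups.

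In males of the same genotypes limma called 8 probe sets (0.0426%), and 2 of them, CG13155 and 1624393_at, were also called in females. CG13155 rose by 1.59 in males (SE 0.19, limma adjusted p = 3.3e-04), and its effect was not shown to differ between the sexes (females minus males -0.44, SE 0.26, adjusted p = 0.995). 1624393_at rose by 0.91 in males (SE 0.16, limma adjusted p = 0.0379; difference 0.29, SE 0.23, adjusted p = 0.995). The effect itself differed between females and males for 7 probe sets (0.0373%), by the interaction term. The rise was larger in females for 1640377_s_at (difference 3.62, SE 0.28, limma adjusted p = 5.6e-07), CG1304 (3.45, SE 0.36, adjusted p = 4.0e-05) and Cht10 (1.33, SE 0.18, adjusted p = 0.00192). In males these 3 had changes of -0.09, -0.27 and -0.06, none past the threshold (limma adjusted p = 1.00 for each). Neither lower probe set differed between the sexes by this test (adjusted p = 0.995 for each), with differences of -1.25 (SE 0.34) for 1629760_s_at and -0.50 (SE 0.29) for 1626392_s_at.

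**Figure D3:**
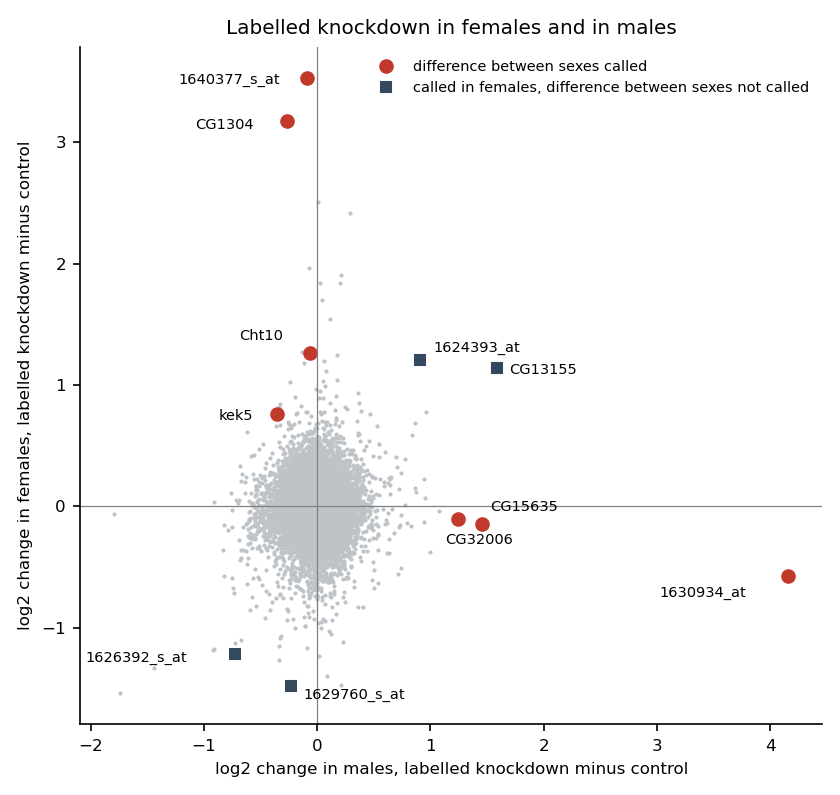
The log2 change between labelled knockdown and arm-GAL4 control is plotted for 18769 probe sets (grey), in males on the horizontal and in females on the vertical axis. Red circles mark the 7 probe sets whose effect differed between the sexes, and dark squares the 4 others called in females. 1640377_s_at and CG1304 lie high on the vertical axis and near 0 on the horizontal one.

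Over-expression females, set against their own control, share no array with this comparison, and there limma called 383 probe sets (2.04%). The 2 effects differed for 55 probe sets (0.293%), of which 41 were called with over-expression and 4 in females labelled knockdown. The change was the larger one in size with over-expression for 42 of the 55. Cyp4p2 was at -0.09 in females labelled knockdown and 2.02 with over-expression, the serine protease gene Ser12 at -0.01 and 3.25, and Eip63E at -0.04 and 1.57. None of these 3 passed the threshold in females labelled knockdown (limma adjusted p = 0.953 to 0.997), and the differences of effect did (2.4e-05, 2.4e-05 and 2.1e-04). CG13032 was at 0.38 in females labelled knockdown and -1.48 with over-expression, a difference of 1.86. CG1304 and 1640377_s_at were at 0.37 each with over-expression and were not called there (adjusted p = 0.445 and 0.338). Their differences of effect were 2.80 (SE 0.36, adjusted p = 5.2e-04) and 3.16 (SE 0.28, adjusted p = 1.2e-05). CG13155 rose by 1.14 in females labelled knockdown and by 2.00 in over-expression females, and these were not shown to differ (-0.85, SE 0.26, adjusted p = 0.123). Single arrays moved the count of 55. Leaving out labelled females replicate 1, 2 or 3 gave 17, 23 or 127. Leaving out control females replicate 2 gave 89, and replicate 3 gave 22. Over-expression and Act5C-GAL4 arrays were not left out in turn.

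Among brighter genes that kept 1 sign in every diet batch, the largest positive differences after CG1304 included those of 2 yellow family genes of the eggshell. The 10 highest and 10 lowest were taken among 343 higher and 279 lower probe sets with a mean of 5 or more and an unadjusted p under 0.05. Apart from CG1304 they did not pass the adjusted threshold (limma adjusted p = 0.105 to 0.901). yellow-g2, a yellow family gene expressed in the follicle cells that make the eggshell, read 10.12, 9.05 and 10.36 in females labelled knockdown, against 7.83, 5.43 and 9.01 in control females. Its mean difference was 2.42 (SE 0.63, limma adjusted p = 0.326). Its neighbour in the family, yellow-g, read 10.54, 9.33 and 10.49, against 8.97, 6.42 and 9.45 in control females (difference 1.84, SE 0.59, adjusted p = 0.671). In both, control females replicate 2 was far below the other 5 arrays. The rest were CG13114 (1.97), CG1077 (1.91), CG14834 (1.84), the mucin gene Muc4B (1.70), CG10163 (1.27), CG43333 (1.27) and the odorant-binding protein gene Obp19c (1.20, against -0.21 for its other probe set). All 10 of these highest genes, CG1304 included, were lowest in control females replicate 2. The rule had already placed each control below its labelled pair, which makes a control array the likely lowest. Without that array yellow-g was at 1.17, CG14834 at 0.89, Muc4B at 1.05 and Obp19c at 0.74, and the other 6 moved by less than 1.5 times.

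The 10 lowest were led by LManIII, a lysosomal alpha-mannosidase gene. It read 5.19, 7.64 and 4.94 in females labelled knockdown, against 5.56, 10.26 and 6.36 in control females (difference -1.47, SE 0.64, limma adjusted p = 0.901). The labelled group was lower in each batch, but batch 2 was high in both groups. CG8093, of the lipase family, read 6.54, 6.72 and 6.66 in females labelled knockdown, against 6.74, 9.23 and 7.66 in control females (-1.24, SE 0.35, adjusted p = 0.474). The others were CG15784 (-1.16), CG13324 (-1.15), CG10912 (-1.12), CG42857 (-1.12), CG42807 (-1.08), LManV (-1.05) and CG7298 (-1.03), beside Cyp6a2. Control females replicate 2 was the highest of the 6 arrays for 8 of these 10. Here the rule fixed that the highest array was 1 of the 3 controls. Without that array LManIII was at -0.72 and CG8093 at -0.86. CG7298 passed without control females replicate 3 (-1.36, adjusted p = 0.00783), and CG42857 passed without labelled females replicate 3 (-1.40, adjusted p = 0.0494).

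The 13 chorion and vitelline membrane genes, which encode the 2 main layers of the eggshell, all had positive mean differences, and 0 of 13 passed limma. Over all genes 6201 of 11982 differences were positive. The median difference of the list was 0.69, beside 0.00 for all probe sets tested. It was 0.51 in diet batch 1, 1.68 in batch 2 and -0.08 in batch 3, and 0.19 over batches 1 and 3. The chorion gene Cp7Fc had the highest value. It read 9.99, 9.79 and 10.65 in females labelled knockdown, against 6.95, 5.21 and 10.73 in control females (2.51, SE 0.81, limma adjusted p = 0.679). Control replicates 1 and 2 were thus low and replicate 3 was level with the labelled arrays. Without control females replicate 3 the gene passed (4.03, adjusted p = 0.00606), and without replicate 2 it was at 1.43. The fit pools the spread of all groups. The SD of Cp7Fc was 2.82 in control females and 0.03 to 0.31 in the male groups, where its level was low. Its SE and adjusted p can thus be too small. Cp36, a major chorion protein gene, read 13.25, 13.03 and 13.34, against 12.74, 11.35 and 12.98 in control females (0.85, SE 0.56, adjusted p = 0.901). Cp18, another major chorion protein gene, read 13.27, 12.22 and 11.90, against 12.55, 9.91 and 12.24 in control females (0.90, SE 0.57, adjusted p = 0.901). The vitelline membrane gene Vm26Aa, the middle one of the list by difference, read 11.06, 12.45 and 12.35, against 10.52, 10.55 and 12.71 in control females (0.69, SE 0.75, adjusted p = 0.931). Control replicate 2 was the lowest array for Cp36 and Cp18, and for Vm26Aa both control replicates 1 and 2 were low. The mean level of the list was 10.94, 10.96 and 11.09 on the labelled arrays, against 10.26, 8.99 and 11.22 on the control arrays. Control females replicate 2 was the lowest of the 6 arrays for 11 of the 13 genes, and for 16.4% of all genes. The median SD of these genes was 0.71 in females labelled knockdown and 1.13 in control females. In over-expression females against their control the same list had a median of -1.05. The number of follicle cells and their RNA per cell cannot be told apart in whole flies, and neither these nor other causes were tested.

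**Figure D4:**
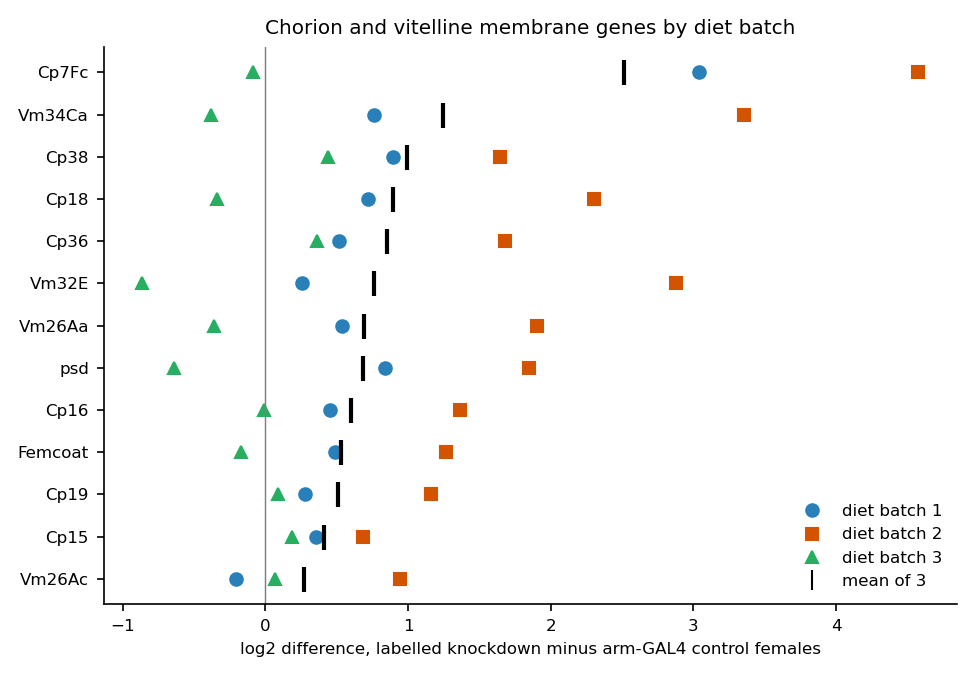
Each row is 1 of the 13 chorion and vitelline membrane genes, and the horizontal axis is the log2 difference, females labelled knockdown minus arm-GAL4 control females, in the pair of each diet batch (blue, orange and green markers) with their mean (black bar). Diet batch 2 gives the highest difference in every row, and batch 3 lies near or below 0 in most.

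The 4 yolk genes, 3 for yolk proteins that the fat body and follicle cells supply to the oocyte and 1 for their receptor, had a median difference of 0.21, with 0 called. It was 0.21, 0.63 and -0.07 in diet batches 1, 2 and 3, and control females replicate 2 was the lowest of the 6 arrays for 3 of the 4. Yp2 read 13.51, 13.49 and 13.75 in females labelled knockdown, against 12.97, 12.47 and 13.77 in control females (0.51, SE 0.25, limma adjusted p = 0.901). Yp1 and Yp3 had differences of 0.24 and 0.19, and the yolk receptor gene yl 0.14. The 22 ovary germline genes had a median of 0.10, and their batch medians were 0.06, 0.12 and 0.23. None of the 22 passed. bcd, the maternal determinant of the head end of the embryo, had the lowest p among them, with 9.42, 9.73 and 9.21 in females labelled knockdown, against 8.97, 9.15 and 8.22 in control females (0.67, SE 0.27, adjusted p = 0.873). The groups of bcd did not overlap, as in 9.05% of probe sets tested. It was named for its low p on these arrays, so this is no separate support.

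Genes of the detoxification families, with which DHR96 is linked, did not pass limma. Of 83 cytochrome P450 genes 0 were called and the median was -0.18. Among the 83, 65 had negative mean differences, beside 5781 of 11982 over all genes. An unadjusted p under 0.05 was reached by 11 lower and 1 higher, beside 3.01% lower and 2.79% higher over all genes. The median was -0.17, -0.12 and -0.26 in diet batches 1, 2 and 3. In males of the same genotypes the median of these 83 genes was 0.05. Cyp6a2, a P450 known for metabolising insecticides, had the lowest p of the family. It read 7.09, 7.34 and 7.87 in females labelled knockdown, against 7.78, 8.89 and 9.20 in control females. Each labelled array was below its pair, but the groups overlapped (-1.19, SE 0.23, limma adjusted p = 0.105). The call was made without control females replicate 1 (-1.39, adjusted p = 0.0399). In males Cyp6a2 had a change of -0.92 (limma adjusted p = 0.582), and in over-expression females of 0.37 (adjusted p = 0.402). The labelled knockdown effect minus that of over-expression was called in females, at -1.56 (SE 0.33, adjusted p = 0.0431). Cyp6a2 averaged 7.43 in females labelled knockdown and 8.62 in their controls, beside 8.06 in over-expression and 7.69 in Act5C-GAL4 control females. In males it was lower with over-expression, at 7.23, than in the Act5C-GAL4 control, at 8.16. Cyp4p3 read 5.49, 5.50 and 5.79, against 6.18, 6.14 and 6.38 in control females, with no overlap (-0.64, SE 0.19, adjusted p = 0.572). Cyp4p3 was named for its low p on these arrays, so the lack of overlap is no separate support. Cyp6a21 had a difference of -0.73 (adjusted p = 0.704). The 34 glutathione S-transferases had a median of -0.12 and the 35 UDP-glycosyltransferases of -0.08, with 0 called in either. GstS1, the transferase with the lowest p, had a difference of 0.50 (SE 0.17, adjusted p = 0.716), and GstE14 one of 0.32.

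Genes of lipid handling, the other field of DHR96, were not called either. Of 34 genes of sterol and lipid transport and gut lipases, 26 had negative mean differences, beside 5781 of 11982 over all genes. The list had a median of -0.09 and 0 called. magro (mag), the gut lipase known as a DHR96 target, read 10.58, 9.99 and 11.02 in females labelled knockdown, against 10.66, 9.75 and 10.68 in control females. Its groups overlapped throughout (0.17, SE 0.33, limma adjusted p = 0.966). Npc1a, a sterol transporter of the Niemann-Pick type, had a difference of 0.07 (adjusted p = 0.963). The lipase genes Lip1 (-0.59, SE 0.18, adjusted p = 0.638) and CG17097 (0.52, SE 0.17, adjusted p = 0.671) each had groups that did not overlap. Both were named for a low p on these arrays, so this is no separate support. CG17097 was low in females, at 5.42 in those labelled knockdown and 4.90 in controls. In males of these genotypes it averaged 12.60 and 12.51. The 17 genes of fatty acid and triglyceride synthesis had a median of -0.08, and the lowest p was that of FASN2, a fatty acid synthase (-0.31, adjusted p = 0.901). The 20 nuclear receptor genes, Hr96 among them, lay between -0.35 and 0.23, with kni lowest and usp, the partner of the ecdysone receptor, highest.

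The 20 immune peptides and effectors had 19 negative mean differences of 20, beside 5781 of 11982 over all genes. Genes of a list can vary together across arrays, so such counts are not independent. The median of the immune list was -0.35, the lowest of the 26 lists, with 0 called, and in males of these genotypes it was -0.01. Batch medians were -0.15, -0.18 and -0.36. Drsl5, of the drosomycin family of antifungal peptides, read 9.08, 9.62 and 10.02 in females labelled knockdown, against 10.05, 10.05 and 11.17 in control females (-0.85, SE 0.34, limma adjusted p = 0.873). PGRP-LB, which breaks down bacterial peptidoglycan, had a difference of -0.41 (adjusted p = 0.901). Of 40 chitin metabolism genes Cht10 alone was called, while 30 had negative differences, among them obst-E, a chitin-binding protein gene (-0.46, SE 0.16, adjusted p = 0.716). Among 104 cuticle proteins 0 were called, with a median of -0.05. Cpr51A read 6.16, 6.23 and 6.42 in females labelled knockdown, against 6.52, 7.77 and 7.34 in control females (-0.94, SE 0.25, adjusted p = 0.377), and TwdlF, of the Tweedle family of cuticle proteins, passed only without control females replicate 1 (-1.40, adjusted p = 0.00390; -0.94, adjusted p = 0.444 on all arrays). Of 28 trypsin-like digestive proteases only CG1304 was called. The next by p after Ser6 was thetaTry, at -0.56 (SE 0.19, adjusted p = 0.716).

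In the remaining lists 0 members were called. Neuron and photoreceptor genes had medians near 0 (-0.01 and -0.06) with batches of opposite sign: 0.40, -0.45 and 0.14 for neurons and 0.40, -0.70 and 0.12 for photoreceptors in diet batches 1, 2 and 3. The 8 genes of the RNA interference machinery had a median of 0.06 and ranged from -0.12 to 0.24. The 17 zinc transporters had a median of -0.05, with Zip102B highest: 6.37, 6.04 and 6.75 in females labelled knockdown, against 5.58, 5.84 and 5.40 in control females (0.78, SE 0.18, limma adjusted p = 0.233). The scaffold protein gene vari led the 20 septate junction genes, with 8.23, 8.05 and 8.47, against 7.43, 7.62 and 7.70 in control females (0.66, SE 0.14, adjusted p = 0.178). CG18549 read 8.17, 8.03 and 8.06, against 7.61, 7.53 and 7.57 in control females (0.52, SE 0.11, adjusted p = 0.133). For these 3 the groups did not overlap, as in 9.05% of probe sets tested. All 3 were chosen from earlier results of these same data, so the lack of overlap is no separate support. Their values in males were 0.96, 0.53 and 0.55, and none passed (limma adjusted p = 0.0722, 0.953 and 0.0826). The testis and accessory gland lists, which mark male tissue, had medians of 0.08 and 0.02 and levels of 4.53 to 4.91 and 4.77 to 5.36 in females labelled knockdown, against 4.59 to 4.67 and 4.86 to 5.20 in control females.

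With array weights in the fit, yellow-g2, CG13114, Muc4B, Cyp6a2, CG42857, CG7298, vari, Cp7Fc and CG18549 passed (adjusted p = 0.0130 to 0.0358).

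**Figure D5:**
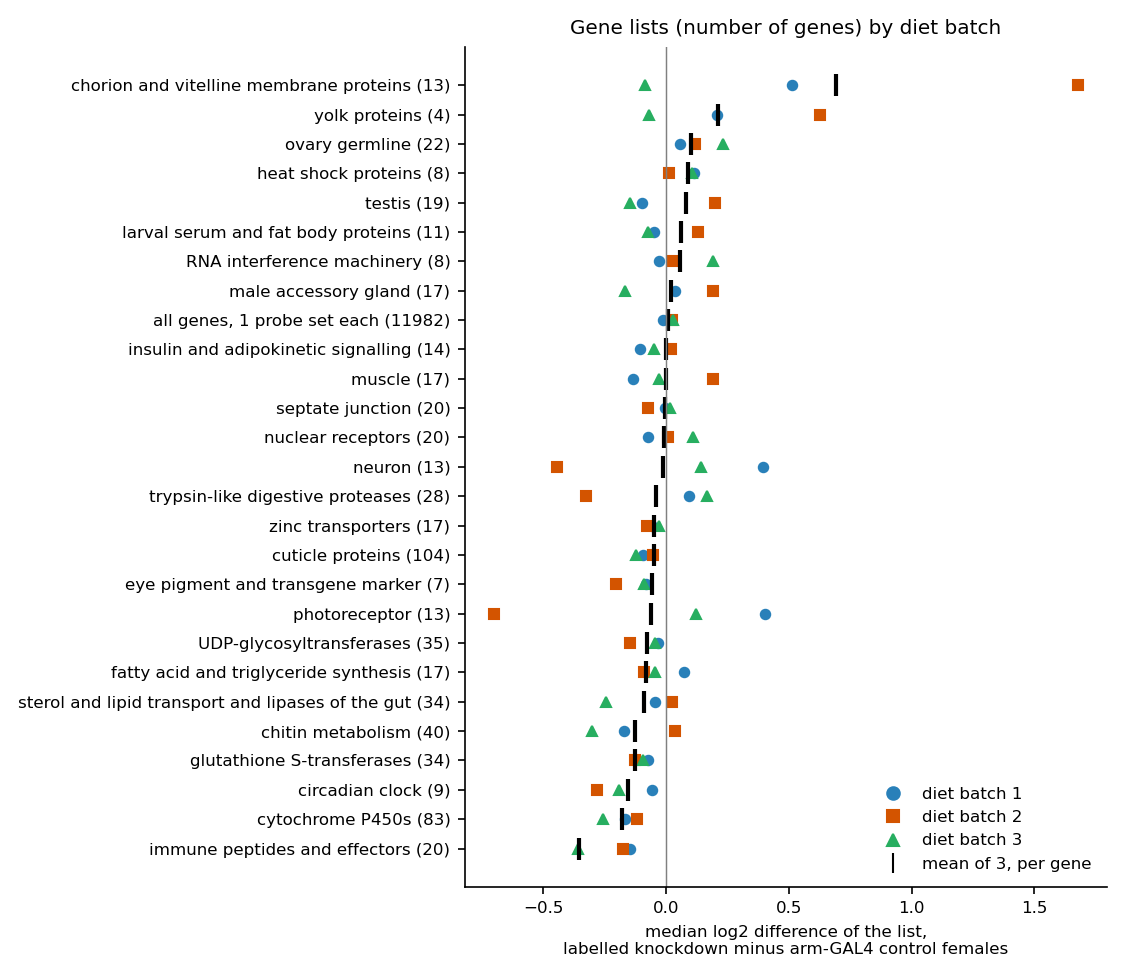
Rows are the 26 gene lists and all genes, with the number of genes in brackets, and the horizontal axis is the median log2 difference, females labelled knockdown minus arm-GAL4 control females, per diet batch (coloured markers) and for the mean of the 3 batches (black bar). The chorion and vitelline list reaches 1.68 in batch 2, and the photoreceptor list runs from -0.70 in batch 2 to 0.40 in batch 1.

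By chromosome arm, with 1 probe set per gene, an unadjusted p under 0.05 with a higher value was reached by 4.86% of 1873 genes on X, where CG1304 lies. The other large arms gave 2.81% of 2205 genes on 2L, 2.55% of 2427 on 2R, 2.43% of 2344 on 3L and 1.95% of 2974 on 3R. Lower values made up 2.67% on X and 2.43% to 3.63% on those arms. The median difference was 0.03 on X and between 0.00 and 0.01 in size on the other large arms. Arms come from the Release 6 gene table.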

How the data were processed

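Total RNA of whole flies was hybridised as biotin-labelled cRNA to Affymetrix arrays, per the labels. The authors deposited linear intensities made with RMA (background correction, quantile normalization and a summary over probes), per the submitters' processing notes. The sources used here do not give its version or any later scaling. RMA compresses large differences. Log2 was taken with no pseudocount, and 183 control probe sets of 18952 were left out (0 were called when fitted alone). Of 18769 tested, 13647 name 1 gene (11982 genes), 402 several and 4720 are unnamed here. Names come from the platform annotation, and 13544 matched the Release 6 gene table by gene ID.

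Limma 3.58.1 in R 4.3.3 was fitted to all 24 arrays with 1 mean per group and diet batch as a block (14 residual degrees of freedom, prior 5.69). Tests were two-sided, p-values were adjusted by Benjamini-Hochberg over the 18769, and the threshold was 0.05. Every SE and adjusted p in the text is from this fit unless another is named. The fit was tested on simulated data that gave each probe set the same SD in every group and no diet batch effect. Those data do not show how the fit behaves where groups differ in spread. The labels tie replicate numbers to diet batches, so they pair the arrays. Deviations from group means correlated at 0.33, 0.38 and 0.57 in the 3 pairs, and at -0.43 to 0.14 between numbers. Deviations cancel within a group, so positive values in the pairs bring lower ones between numbers by arithmetic. The labels call replicates biological. p-values rest on a spread pooled over all groups, males included, so they can be too small or too large where groups differ in spread.

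The members, lists and tests were chosen with earlier results of these data known. Named were Hr96, every called probe set, the 10 highest and 10 lowest genes described in the text, up to 3 members per list by p, up to 5 probe sets per difference of effects, checks of the labels (w was not analysed here), and genes of earlier results. kek5, CG15635 and CG32006 are given as differing between sexes. mag, Npc1a, Vm26Aa, the neighbours of called genes and CG11666 were added to show their values, the neighbours after their values were seen. Lists use 1 probe set per gene, the one with the highest mean, and were described by counts and medians, with no set test. Alternatives were no block, a block within each sex, fewer arrays, a minimum mean of 5, a median shift, quantile normalization, trend and robust eBayes, array weights, a single probe set for each gene, and the omission in turn of each of the 6 compared arrays (for the sex difference, of the 6 male arrays too). Tables and plots used Python 3.11.15, numpy 2.4.6, pandas 2.3.3 and matplotlib 3.10.9.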

Additional observations from a re-analysis of the deposited data

Results flagged for a closer look

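The change between labelled knockdown and arm-GAL4 control differed between females and males by the interaction term for 7 probe sets. The difference, females minus males, was 3.62 for 1640377_s_at, 3.45 for CG1304 and 1.33 for Cht10, each with a rise in females. It was -4.73 for the unnamed 1630934_at (SE 0.34, limma adjusted p = 1.8e-07), which changed by -0.57 in females and 4.16 in males. It was -1.60 for CG15635 (SE 0.22, adjusted p = 0.00273; -0.14 in females, 1.46 in males).

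For kek5, a membrane protein gene of the kekkon family, the difference was 1.12 (SE 0.20, limma adjusted p = 0.0445), with 0.77 in females and -0.36 in males. In females kek5 missed the threshold (adjusted p = 0.0526) but passed it after quantile normalization (0.0408) and with array weights (0.00720). For CG32006 it was -1.35 (SE 0.24, adjusted p = 0.0484), with -0.11 in females and 1.24 in males. These 2 differences were lost with diet batch as a block within each sex (adjusted p = 0.0966 for each), and in most fits that left out 1 array. That of CG32006 held only on leaving out replicate 3 of the labelled females, 1 of the control females or 3 of the labelled males (otherwise adjusted p = 0.107 to 0.263). That of kek5 held only on leaving out replicate 2 of the labelled females or of the labelled males (otherwise 0.0911 to 0.233).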

How the results depend on the processing

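The count of 7 probe sets in females was 4 with no replicate block, 3 on the 6 compared arrays alone, 3 with 1 probe set per gene (which leaves out unnamed probe sets), 46 with array weights (26 higher), and 5 to 12 on leaving out 1 of the 6 compared arrays. With the replicate block fitted within each sex it was 8. After quantile normalization it was 9, 5 higher and 4 lower. On the 12 female arrays alone it was 6, all higher. The 5 higher calls of 1640377_s_at, CG1304, Cht10, 1624393_at and CG13155 kept their direction in every alternative that tested them. Since their groups did not overlap, a reversal was hardly possible, so the kept direction is no support. The calls of Cht10, 1624393_at and CG13155 were lost in some alternatives. The count of sex differences was 3 with 1 probe set per gene and 5 to 7 without 1 of these or of the 6 male arrays. That of differences from over-expression was 32 with no replicate block, 17 on the 12 female arrays, 172 with array weights and 17 to 127 without 1 of the 6 compared arrays. Hr96 ranged from 0.03 to 0.30 without 1 array and was not called in any alternative. Ser12, at -0.01 in females labelled knockdown, was 0.021 with arrays shifted to a common median, 0.0059 after quantile normalization and 0.079 with array weights. Leaving out 1 array gave -0.154 to 0.173 for Ser12, -0.0383 to 0.265 for yl, -0.0814 to 0.307 for inaE, -0.496 to 0.0196 for daw, -0.123 to 0.0455 for Eip63E and -0.243 to 0.0768 for CG32006. None of these 6 was called in females in any of them; the cause was not tested. Fits on diet batches 1 and 3 alone, and without single male arrays, were chosen after seeing the data.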
